A study of Homo sapiens with 12 samples.

Results

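The genes of DNA replication and of entry into S phase were followed in A375/211, a human melanoma line that overexpresses MIR211, and in A375, the melanoma line it comes from. The set was chosen as 45 named genes of the replication machinery and the G1/S transition, out of 60675 gene IDs in each table, and each of the 45 matched 1 gene ID. Total RNA was sequenced from cultures without BrU in 2 libraries per line, lettered a and b. In BRIC-seq, cells of each line were labelled with 5-bromouridine (BrU) for 24 h, and the labelled RNA was captured with an antibody after 0, 1, 3 and 6 h without BrU, with 1 library per line and time. Both lines grew in the same serum-containing medium, and the labels name no control vector for A375/211 and do not say whether it is 1 clone or a pool. With 1 line on each side, an effect of MIR211 cannot be told apart from any other difference between the lines.

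Before a cell copies its DNA, the origin recognition complex and CDC6 with CDT1 load the MCM2-7 helicase onto chromatin. CDC45 and the GINS complex then switch the helicase on, and primase, the replicative polymerases, the PCNA clamp and its loader build the new strands. Many of these genes are transcribed together, shortly before S phase, by E2F factors. This follows once cyclins, cyclin E among them, and their partner kinases have inactivated the RB protein. In bulk RNA, fewer cycling cells and less mRNA per cell cannot be told apart.

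RNA-seq libraries held 34.1 and 30.5 M counts for A375/211 and 20.8 and 28.4 M for A375. BRIC-seq libraries held 2.78 to 6.66 M for A375/211 and 2.67 to 7.28 M for A375, with the later times deeper in both lines. All 45 genes passed the filter on low counts in RNA-seq, where 19258 genes were tested, and 44 did in BRIC-seq, where 13703 were. E2F1 was the exception, with 0 to 4 counts in each BRIC-seq library of A375/211 and 0 to 9 in those of A375, against 863 and 1575 counts in RNA-seq of A375/211 and 450 and 1899 in that of A375. Levels are given as CPM, the count per M counts of the scaled library, and a gene passes at an adjusted p under 0.05 in edgeR's quasi-likelihood test, adjusted over all genes tested.

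The promoters of these genes share letters that mark E2F target genes. The forms TTCCCGC and TTGGCGC were searched on both strands from 250 bases before to 50 bases after each start in RefSeq's annotation (GRCh38.p14), which covers 38 of the 45 genes. At least 1 form stood in the windows of 27 genes (71.1%), against 11% of 27305 genes with a window and 17.4% of 11758 genes that were also tested in RNA-seq. A form also stood in 44.1% of 34 further replication and G1/S genes, 28.6% of 21 G1/S regulators and 12.9% of 31 mitosis genes. CCAAT, the core of the NF-Y box, stood in 60.5% of the 38, against 39.7% of all genes and 43.5% of those tested. It is not particular to the set, with 80.6% of the mitosis genes, 57.1% of the regulators and 55.9% of the further replication genes. TTTGAA, the core of the CHR element of mitotic genes, stood in 1 of the 38 (2.63%), against 18.2% of all genes and 74.2% of 31 promoters of mitosis genes. The reverse complement of TTGGCGC is GCGCCAA, which can overlap a CCAAT, and 57.9% held a CCAAT clear of it. A match describes the letters and is not a site of binding. The stretches below are 120 bases before a start, written on the strand with the sense of the mRNA. They were chosen for genes of different roles whose mRNAs turned out to move together between libraries. Capitals mark the E2F-like letters.
PCNA (chr20:5126623-5126742, minus strand): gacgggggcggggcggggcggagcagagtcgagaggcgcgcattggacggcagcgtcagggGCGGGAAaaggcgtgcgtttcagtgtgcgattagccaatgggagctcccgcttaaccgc
CDT1 (chr16:88803669-88803788, plus strand): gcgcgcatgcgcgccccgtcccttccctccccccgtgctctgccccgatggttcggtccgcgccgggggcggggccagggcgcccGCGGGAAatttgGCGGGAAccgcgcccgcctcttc
MCM6 (chr2:135876473-135876592, minus strand): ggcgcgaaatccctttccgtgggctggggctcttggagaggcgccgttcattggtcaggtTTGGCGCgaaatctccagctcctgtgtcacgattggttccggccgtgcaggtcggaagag
POLE (chr12:132687343-132687462, minus strand): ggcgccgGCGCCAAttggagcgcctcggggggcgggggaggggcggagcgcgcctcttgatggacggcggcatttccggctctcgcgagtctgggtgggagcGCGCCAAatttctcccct
POLA1 (chrX:24693738-24693857, plus strand): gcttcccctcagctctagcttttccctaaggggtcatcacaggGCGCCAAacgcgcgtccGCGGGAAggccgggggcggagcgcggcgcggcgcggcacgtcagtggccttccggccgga
E2F1 (chr20:33686386-33686505, minus strand): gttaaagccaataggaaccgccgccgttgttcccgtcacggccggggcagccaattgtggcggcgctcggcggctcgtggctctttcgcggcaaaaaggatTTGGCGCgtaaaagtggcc

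The microRNA made in excess in A375/211 is miR-211-5p (chr15:31065095-31065116, minus strand, GRCh38.p14), printed here because a 3′ UTR site for it could mark a member as a possible target. Capitals mark the seed, bases 2 to 8.
hsa-miR-211-5p: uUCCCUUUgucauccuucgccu
The complement of the seed, AAAGGGA, stood in the 3′ UTR of the canonical GENCODE 44 transcript of 5 of the 45 genes (11.1%), against 19.5% of 13380 coding genes tested in RNA-seq. These are GINS3, GINS4, POLA1, RPA1 and RRM2. For 4 of them the match (capitals) is shown with its flanks in hg38.
GINS3 (chr16:58405280-58405308, plus strand): ataaaggaggaAAAGGGAaaggcagacga
POLA1 (chrX:24996967-24996986, plus strand): taaagttttctAAAGGGAaa
RPA1 (chr17:1899883-1899911, plus strand): ttccttgtctcAAAGGGAagattcccccc
RRM2 (chr2:10131324-10131352, plus strand): ctaatcagttgAAAGGGAaacaagtattt
None of the 5 passed between the lines in RNA-seq, where the log2 difference (A375/211 minus A375) was 0.26 for GINS3, 0.72 for GINS4, 0.20 for POLA1, -0.13 for RPA1 and -0.14 for RRM2. In labelled RNA with times matched, POLA1 passed as lower in A375/211 (-0.53, edgeR adjusted p = 0.00404), as did 12.3% of all genes. The others did not pass there, at -0.80 for GINS4, -0.64 for RRM2, -0.34 for RPA1 and 0.27 for GINS3. Any part of the seed matches in these values was not tested.

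Per transcript length, PCNA, the sliding clamp, had the highest RNA-seq level of the set. It stood at 113 and 224 TPM in A375/211 (169 ± 78.4, SD, n = 2) and at 93.1 and 266 TPM in A375 (179 ± 122, n = 2). FEN1, which trims Okazaki fragments, followed at 116 ± 42.2 TPM in A375/211 and 95.7 ± 56.6 TPM in A375, and MCM7 of the helicase at 102 ± 38.3 and 91.3 ± 49.9 TPM. E2F2, a transcription factor of G1/S genes, was lowest at 3.14 ± 1.90 TPM in A375/211 and 3.11 ± 2.37 TPM in A375. The SDs are large against the means, but they hold a gap between libraries a and b that most of these genes share. They therefore do not measure how firm the order is. PCNA stood above FEN1 in every library, whereas FEN1 lay just below MCM7 in library a of A375 (55.6 against 56.0 TPM).

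The comparison of total RNA asks which mRNAs differ in level between the lines. Of the 45 genes, 0 passed in edgeR in either direction, where 0.379% of all genes tested passed (0.171% higher and 0.208% lower in A375/211), and 0 of the 45 had an unadjusted p under 0.05. Their log2 differences ran from -0.33 for CDC45 to 0.72 for GINS4. DESeq2 also called 0 of the 45, at a background of 3.88%. The median log2 difference of the 45 was 0.11, beside -0.003 over all genes. The libraries of the lines did not overlap for 1 gene, ORC2, an origin recognition subunit that was lower in both libraries of A375/211 (42.4 and 39.8 CPM, against 43.6 and 45.3 CPM in A375), whereas they did not overlap for 41.0% of all genes tested (20.7% higher and 20.3% lower in A375/211). Most of the 45 genes differ between libraries a and b in both lines, as given below. That gap makes the lines overlap, so this count does not show that the lines are alike. The gap also widens the standard errors. With the letter as a block in edgeR, their median was 0.15 in place of 0.49, and 2 of the 45 had an unadjusted p under 0.05.

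Libraries a and b of the same line stood far apart. Library b exceeded library a in both lines for 44 of the 45 genes (97.8%), against 32.2% of all genes tested, and by over 0.5 on the log2 scale in both lines for 36 of them (80.0%), against 4.06%. The median of b over a was 1.70-fold in A375/211 and 2.22-fold in A375, beside 0.999-fold and 0.988-fold over all genes. Summed over the 45 genes, the level was 2584 CPM in a and 4349 CPM in b of A375/211, and 2008 CPM in a and 4284 CPM in b of A375. ORC2 was again the exception, with b minus a at -0.09 in A375/211 and 0.05 in A375 on the log2 scale. The labels do not say what the letters stand for, so this is a description with no test, and its cause was not tested.

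PCNA shows the pattern, with 117 and 213 CPM in libraries a and b of A375/211 and 96.6 and 251 CPM in a and b of A375. The A375 libraries lie on either side of those of A375/211, and the log2 difference between the lines was -0.07 ± 0.54 (SE, edgeR adjusted p = 0.984). Of the licensing factors, CDC6 stood at 70.0 and 122 CPM in A375/211 and at 53.7 and 114 CPM in A375, a log2 difference of 0.20 ± 0.46 (edgeR adjusted p = 0.947). The order of the 4 libraries is the same for CDC6 and for MCM2, with a below b in each line and A375/211 above A375 at each letter. MCM2, a helicase subunit, had 173 and 317 CPM in A375/211 and 80.9 and 224 CPM in A375, and its log2 difference of 0.69 ± 0.57 was the second largest of the set (edgeR adjusted p = 0.774).

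**Figure D1:**
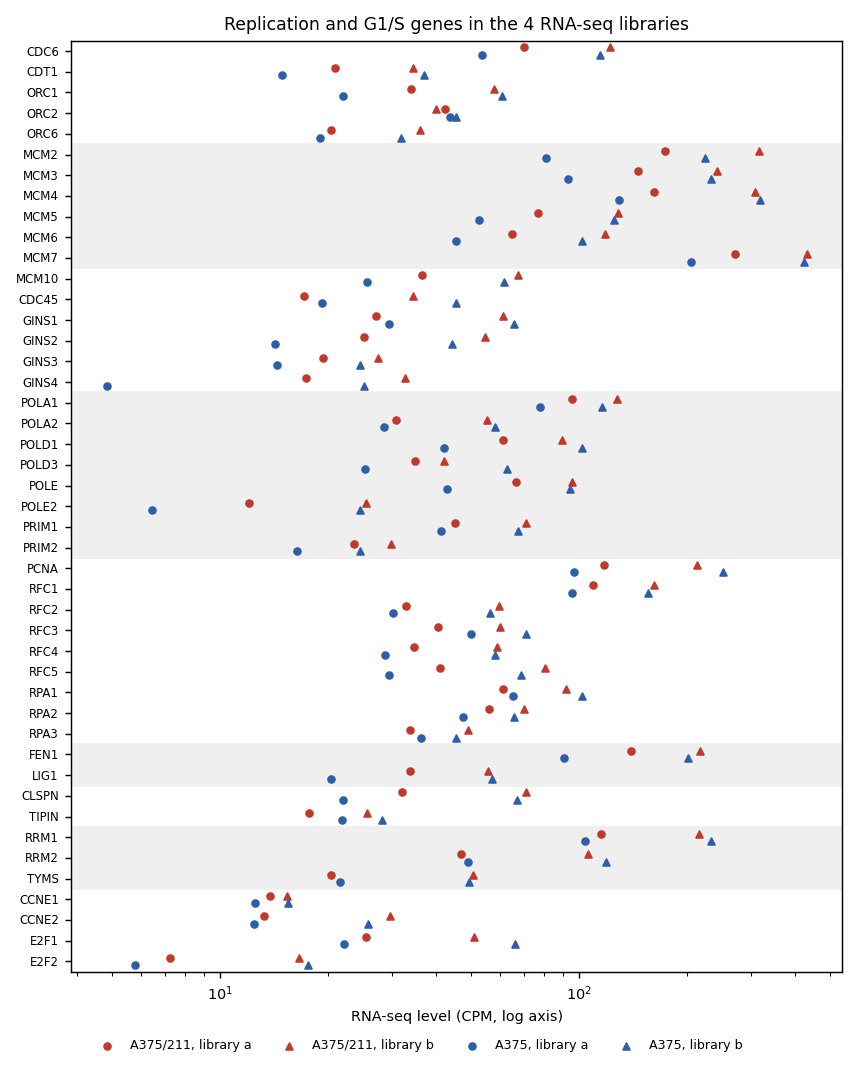
RNA-seq level in CPM (log axis) of the 45 genes in each of the 4 libraries, grouped by role from licensing factors at the top to cyclin E and E2F genes at the bottom. Circles are library a and triangles library b, A375/211 in red and A375 in blue; triangles lie right of circles of the same colour for every gene except ORC2 in A375/211.

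The genes of nucleotide supply were also higher in b than in a in both lines. RRM2, the regulated subunit of ribonucleotide reductase, had 46.9 and 106 CPM in a and b of A375/211 and 48.9 and 119 CPM in A375 (log2 difference -0.14 ± 0.58, edgeR adjusted p = 0.973). TYMS, thymidylate synthase, had 20.4 and 50.7 CPM in A375/211 and 21.5 and 49.3 CPM in A375, so that the lines lie on top of each other at each letter. Among the regulators, E2F1 had 25.4 and 51.0 CPM in A375/211 and 22.1 and 66.1 CPM in A375. The cyclin E genes differed from each other. CCNE2 followed the letters, with 13.2 and 29.7 CPM in A375/211 and 12.4 and 25.8 CPM in A375. CCNE1 moved little, at 13.8 and 15.3 CPM in A375/211 and 12.5 and 15.4 CPM in A375.

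The 5 genes with the smallest unadjusted p between the lines were PRIM2, MCM2, RFC3, GINS4 and GINS3. PRIM2, the large primase subunit, had 23.6 and 29.8 CPM in A375/211 and 16.4 and 24.5 CPM in A375 (log2 difference 0.38 ± 0.27, edgeR adjusted p = 0.724). GINS4, a helicase cofactor, had 17.3 and 32.6 CPM in A375/211 and 4.82 and 25.2 CPM in A375, and its difference of 0.72 ± 0.80 was the largest of the set. Library a of A375 lies far below the other libraries for this gene. GINS3, of the same complex, had 19.3 and 27.5 CPM in A375/211 and 14.4 and 24.5 CPM in A375. RFC3, a clamp loader subunit, ran the other way, with 40.4 and 60 CPM in A375/211 and 49.9 and 70.9 CPM in A375 (log2 difference -0.27 ± 0.29, edgeR adjusted p = 0.849).

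Set within a letter, the lines gave different pictures, a comparison added after the data were seen and given without a test. In library a, 36 of the 45 genes were higher in A375/211 than in A375, with a median log2 difference of 0.29. Over all genes tested it was 9748 of 19258, with a median of 0.01. In library b it was 26 of 45, with a median of 0.03, beside 9729 of 19258. The lean is not particular to this set. Of 38 mitosis and G2/M genes, 33 were higher in a (median 0.59) and 27 in b (median 0.14). All 6 MCM2-7 genes were higher in A375/211 in library a (median 0.52), and in b 5 of the 6 were (median 0.04). Which library enters decides the direction: the median of the 45 was 0.77 without library b of A375 and 0.47 without library a of A375/211, but -0.29 without library a of A375 and -0.27 without library b of A375/211.

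The letters were also compared in 3 lists of neighbouring genes. Of the 38 mitosis and G2/M genes, 35 were above a in b in both lines (92.1%), with medians of 1.56-fold in A375/211 and 2.18-fold in A375. Of 42 further replication and G1/S genes, such as the kinase genes CDC7 and DBF4, 35 were (83.3%), at 1.49-fold and 1.54-fold. G1/S regulators outside the replication machinery (cyclins, kinases, inhibitors, RB and E2F family genes) did not share the pattern, with 10 of 27 (37.0%) and medians of 1.18-fold and 0.89-fold. MYC ran opposite to the set, at 16.3 and 2.1 CPM in a and b of A375/211 and 11.2 and 2.71 CPM in A375. No gene of these 3 lists passed between the lines in RNA-seq (0 of 42, 0 of 27 and 0 of 38). The smallest p among them belonged to CDKN1A, the p21 inhibitor of cyclin-dependent kinases, which had 229 and 251 CPM in A375/211 and 117 and 82.8 CPM in A375 (log2 difference 1.26 ± 0.23, edgeR adjusted p = 0.127). CDK2, the kinase partner of cyclin E, followed with 185 and 224 CPM in A375/211 and 123 and 104 CPM in A375 (0.85 ± 0.20, edgeR adjusted p = 0.202). For both genes the lines do not overlap, which also holds for 41.0% of all genes tested.

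**Figure D2:**
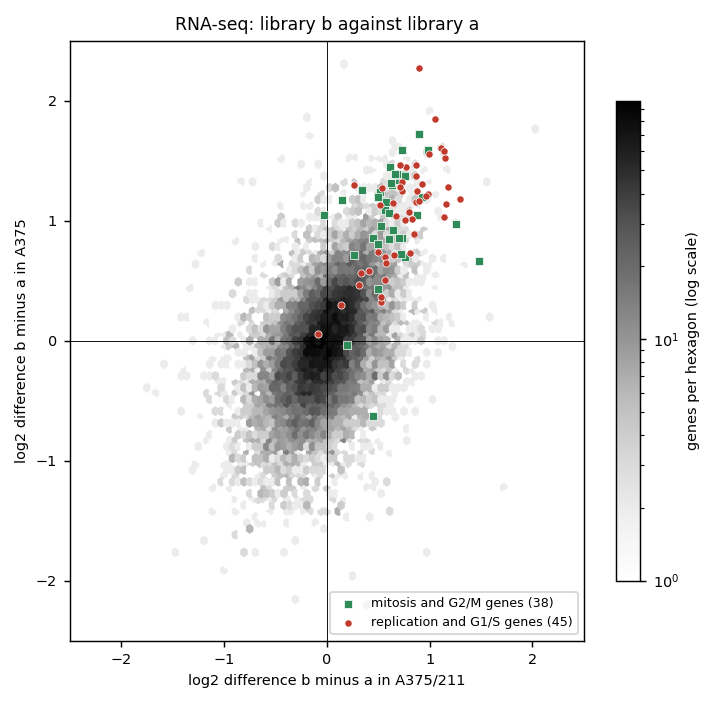
Log2 difference of library b minus library a in A375/211 (x axis) and in A375 (y axis) for each gene tested in RNA-seq; grey hexagons count all 19258 genes, red circles are the 45 replication and G1/S genes and green squares the 38 mitosis genes. The 45 genes lie almost wholly in the upper right, where b exceeds a in both lines, with 44 of 45 there against 32.2% of all genes.

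The chase asks how long the mRNAs last. A slope is the change in labelled CPM in log2 per hour, so it is relative to all labelled RNA after scaling, and it ranks transcripts rather than giving a half-life. Averaged over the lines, 13 of the 44 genes tested rose relative to that total and 7 fell, against 29.9% of all genes that rose and 34.4% that fell (64.3% in all). The members' shares were 29.5% and 15.9%, and their median of -0.03 per hour stood beside -0.04 over all genes. With glycolytic mRNAs held constant as the scale, all 13 rises turn into negative slopes while all 7 falls still pass. With total counts as the scale, the 7 falls and the rise of RRM1 still pass, the slope of MCM4 turns negative, and the other 11 rises do not pass. These scales moved the median slope of all genes by -0.48 and -0.16. Lost rises and kept falls thus follow from the scale and do not show that the falls are firmer. With RLE, another scaling, that median moved by 0.03 and 1 call did not pass, the fall of ORC1.

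By role, rises were counted for 2 of 8 polymerase and primase genes, 3 of 9 clamp, loader and RPA genes, 2 of 3 nucleotide supply genes, 4 of 6 MCM2-7 genes, 1 of 6 helicase activation genes and 1 of 2 Okazaki fragment genes, all with negative slopes when glycolytic mRNAs were held constant. RRM1, the large subunit of ribonucleotide reductase, had the smallest p of the set, with 62.5, 94.4, 160 and 245 labelled CPM at 0, 1, 3 and 6 h in A375/211 and 81.0, 100, 157 and 282 CPM in A375. It climbed at every step in both lines, at 0.31 ± 0.03 per hour (SE, edgeR adjusted p = 4.44e-05). POLE, the catalytic subunit of leading-strand polymerase, had 46.8, 49.0, 68.6 and 104 CPM in A375/211 and 36.8, 48.2, 83.7 and 144 CPM in A375 (0.27 ± 0.04 per hour, edgeR adjusted p = 0.000276). POLA1, the polymerase that starts each strand, had 103, 116, 143 and 206 CPM in A375/211 and 144, 163, 207 and 315 CPM in A375 (0.18 ± 0.02 per hour, edgeR adjusted p = 0.000206). Both climbed throughout in each line.

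The 5 steepest rises were those of LIG1, CDC45, RRM1, RPA1 and TYMS. LIG1, the ligase that seals Okazaki fragments, had 4.62, 11.7, 9.48 and 19.4 CPM in A375/211 and 2.06, 8.46, 13.1 and 31.9 CPM in A375 (0.38 ± 0.09 per hour, edgeR adjusted p = 0.00416). CDC45, which completes the active helicase, had 6.25, 7.93, 13.1 and 19.8 CPM in A375/211 and 1.18, 9.72, 14.9 and 27.3 CPM in A375 (0.37 ± 0.09 per hour, edgeR adjusted p = 0.00675). Both start from few counts at 0 h, 17 and 23 in A375/211 and 7 and 4 in A375. RPA1, the large subunit of the single-strand binding protein, had 30.5, 36.3, 49.0 and 71.6 CPM in A375/211 and 28.9, 34.5, 79.1 and 120 CPM in A375 (0.28 ± 0.04 per hour, edgeR adjusted p = 0.000653). TYMS had 58.2, 37.1, 89.1 and 94.8 CPM in A375/211 and 58.9, 79.7, 81.0 and 284 CPM in A375 (0.28 ± 0.06 per hour, edgeR adjusted p = 0.00364). Its last A375 value stands far above the others, and without that library the slope was 0.16 with an edgeR adjusted p of 0.0625 (0.00273 to 0.0625 over the 8 single libraries left out).

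Of the 6 MCM2-7 helicase subunits 4 rose, and these 4 slopes turn negative with glycolytic mRNAs held constant. MCM7 gave 0.27 ± 0.04, MCM2 0.18 ± 0.06, MCM6 0.18 ± 0.04 and MCM4 0.10 ± 0.03 per hour. MCM2 had 9.24, 14.9, 21 and 16.7 CPM in A375/211 and 10.3, 15.2, 11.2 and 31.1 CPM in A375, so its rise does not run through every time. MCM3 and MCM5 gave 0.04 ± 0.03 and 0.12 ± 0.09 and did not pass. RFC2 of the clamp loader (0.22 ± 0.08) and RPA3 (0.26 ± 0.06) complete the 13.

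The 7 falls were those of 3 licensing genes (CDC6, ORC1 and ORC2), 2 helicase activation genes (GINS3 and MCM10), the polymerase gene POLD3 and CCNE2. GINS3 fell fastest, with 6.53, 4.76, 1.90 and 1.96 CPM in A375/211 and 5.59, 4.86, 1.93 and 0.603 CPM in A375 (-0.41 ± 0.08 per hour, edgeR adjusted p = 0.00231). CCNE2, the cyclin that drives S phase entry, had 9.24, 9.91, 3.28 and 2.94 CPM in A375/211 and 7.95, 5.92, 4.69 and 2.01 CPM in A375 (-0.32 ± 0.07 per hour, edgeR adjusted p = 0.00259). CCNE2 ended at 0.318-fold of its starting level in A375/211 and at 0.253-fold in A375. ORC2 had 40.5, 47.4, 37.8 and 18.6 CPM in A375/211 and 50.3, 49.9, 34.9 and 16.5 CPM in A375 (-0.24 ± 0.05 per hour, edgeR adjusted p = 0.00165). POLD3, an accessory subunit of the lagging-strand polymerase, had 35.6, 49.6, 24.5 and 13.0 CPM in A375/211 and 38.6, 67.6, 35.5 and 18.3 CPM in A375 (-0.28 ± 0.06 per hour, edgeR adjusted p = 0.00492). It peaked at 1 h in both lines before falling below its start.

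CDC6, the helicase loading factor, held its level for 3 h and then dropped. CDC6 had 43.0, 53.5, 51.0 and 17.4 CPM in A375/211 and 49.5, 72.1, 64.6 and 19.5 CPM in A375 (-0.24 ± 0.08 per hour, edgeR adjusted p = 0.0262). Nearly all of the fall lies between 3 and 6 h in both lines. The origin recognition subunit ORC1 (-0.19 ± 0.07) and MCM10, which bridges helicase and polymerase (-0.14 ± 0.05), also passed. Of the 5 licensing genes, 3 fell and 0 rose, while of the 6 MCM2-7 genes 4 rose and 0 fell. The fall of ORC1 did not pass with RLE scaling. The numbers in each role are small and no test was made between roles.

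The last step of the chase was also read on its own. Labelled CPM stood lower at 6 h than at 3 h by over 0.5 on the log2 scale in both lines for 14 of the 44 genes (31.8%), against 22.6% of all genes tested. Among them were CDC6, MCM10, ORC1, ORC2, GINS1, PCNA, PRIM1 and the clamp loader genes RFC1, RFC3 and RFC4. For 6 genes (13.6%), against 4.59% of all genes, the level stood above its start at 3 h and below it at 6 h in both lines: CDC6, GINS1, ORC1, RFC1, FEN1 and TIPIN, a partner of TIMELESS at the fork. GINS1, of the GINS complex, had 27.7, 32.3, 37.4 and 18.4 CPM in A375/211 and 50.6, 56.0, 60.8 and 26.5 CPM in A375, and its straight slope of -0.13 ± 0.06 per hour did not pass. The 6 h point of each line is 1 library.

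RRM2 and CCNE1 did not pass and are less even. RRM2 had 51.7, 219, 93.8 and 60.3 CPM in A375/211 and 199, 256, 98.8 and 81.0 CPM in A375 (-0.23 ± 0.10 per hour, edgeR adjusted p = 0.07). Both lines peaked at 1 h, and the lines stood farthest apart at 0 h. CCNE1 rested on 0 to 13 counts per library in A375/211 and 6 to 22 in A375 (-0.16 ± 0.14 per hour), which is too few to place it. PCNA gave 0.01 ± 0.06 per hour. The slopes of the 24 genes that did not pass ran from -0.23 for RRM2 to 0.19 for POLD1, the catalytic subunit of the lagging-strand polymerase.

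**Figure D3:**
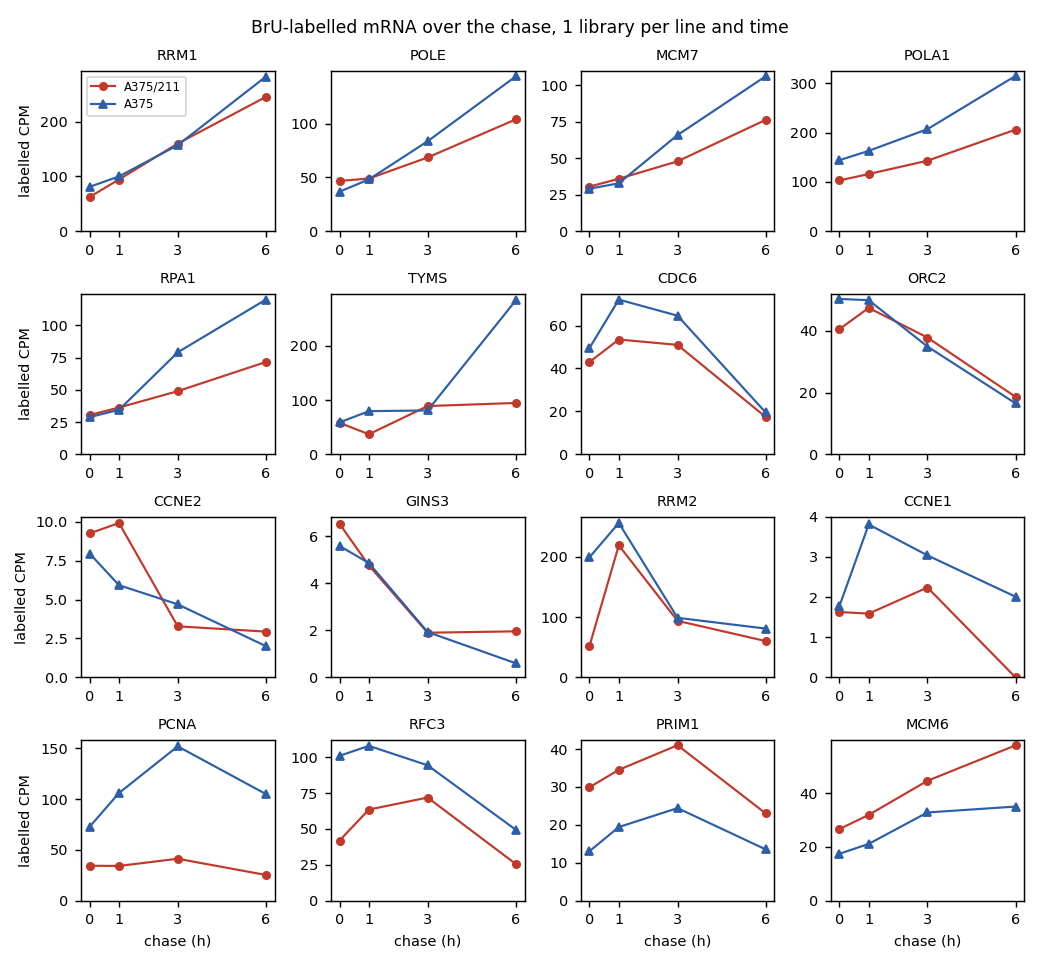
Labelled CPM (y axis, from 0) against hours of chase for 16 genes, with A375/211 in red circles and A375 in blue triangles, 1 library per point. RRM1, POLE, MCM7, POLA1 and RPA1 climb in both lines; CDC6, ORC2, CCNE2 and GINS3 end below their starts; PCNA and RFC3 lie lower in A375/211 at all 4 times, and PRIM1 and MCM6 higher.

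**Figure D4:**
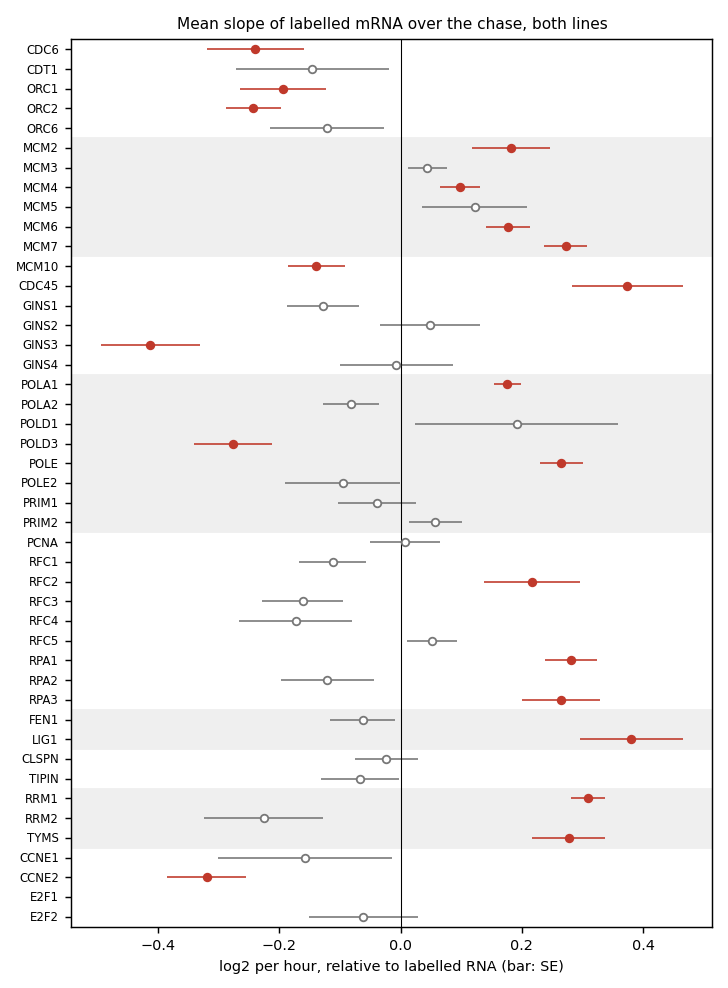
Mean slope over the chase in log2 per hour relative to scaled labelled RNA, with its standard error, for the 44 genes tested (E2F1 is left blank), grouped by role; filled red points pass at an edgeR adjusted p under 0.05. The plot shows 13 filled points right of 0 and 7 left of it; with glycolytic mRNAs held constant the 13 move left of 0.

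Over single libraries left out, 12 of these 20 calls held each time. They are the rises of RRM1, POLE, POLA1, MCM7, MCM6, RPA1, CDC45 and LIG1 and the falls of GINS3, CCNE2, ORC2 and POLD3. The others lost the call at least once. CDC6 and MCM10 each did so when 1 h or 6 h of either line was left out (slopes down to -0.16 and -0.10 without 6 h of A375) and ORC1 without these or 0 h of A375/211 (-0.13 without 6 h of A375). MCM2 lost it without 0 h of either line or 6 h of A375 (0.09), MCM4 without 0 h of either line, 6 h of A375 or 1 h of A375/211 (0.07 at the least), RFC2 without 6 of the 8 libraries (0.16 to 0.29) and RPA3 without 6 h of A375/211 (0.20).

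Transcript features differed between risers and fallers as a description. The 13 rising mRNAs had a median 3′ UTR of 604 bases and 7 of them held ATTTA, the core of AU-rich elements, whereas the 7 falling ones had a median of 1800 bases, 6 with ATTTA. Over the 45 genes, 66.7% held ATTTA, against 73.3% of coding genes tested. Across the 44 genes the slope ran against 3′ UTR length (Pearson r = -0.33, Spearman rho = -0.36) much as across 10789 coding genes (-0.24 and -0.27), and against the share of U in the transcript (r = -0.42, rho = -0.39, beside -0.23 and -0.22). These genes share their libraries, so no p is given.

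Line by line, 7 of the 44 genes rose in A375/211 and 4 fell, beside 21.9% and 21% of all genes (42.9% in all). In A375, 9 rose and 3 fell, beside 23.0% and 24.2% (47.2% in all). In both lines MCM6, MCM7, POLA1, POLE, RPA1 and RRM1 rose and CCNE2, GINS3 and ORC2 fell. These counts depend on the scale. In A375/211, 0 rose and 39 fell with glycolytic mRNAs held constant, and 0 rose and 15 fell with total counts. In A375, 0 rose and 34 fell with glycolytic mRNAs held constant, and 6 rose and 10 fell with total counts. The slopes of all genes moved as well. Their median under these scales was -0.512 and -0.215 per hour in A375/211, and -0.522 and -0.186 in A375. In A375/211, 19 of the 44 genes lay above it under each scale, and in A375 27 and 26 did. With RLE scaling the fall of GINS3 in A375/211 did not pass (-0.29, edgeR adjusted p = 0.0569).

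Each call within a line was lost without at least 1 library. Without the 6 h library of the line itself, 0 genes pass in A375/211 and 0 in A375. The slopes of the called genes then ran from -0.60 for GINS3 to 0.44 for RRM1 in A375/211 and from -0.53 for GINS3 to 0.82 for CDC45 in A375. In A375/211, the calls of POLA1, POLE and RRM1 were lost only so. Other libraries also ended those of MCM7 (2 of 8 libraries in all), CCNE2, ORC2 and RPA1 (3 each), MCM6 and POLD3 (4 each), RPA3 (6) and GINS3 (7). In A375 this held for CCNE2 (4) and MCM6 (6).

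The slopes of the lines were then set against each other. For the slope difference (A375/211 minus A375), 0 of 44 passed in edgeR, as did 0 of all 13703 genes (0.00%), 2 of the 44 had an unadjusted p under 0.05, and DESeq2 also called 0 of the 44. The smallest p belonged to GINS4, with 10.6, 8.53, 2.93 and 4.66 CPM in A375/211 and 8.54, 7.19, 12.3 and 15.9 CPM in A375, a difference of -0.40 ± 0.14 per hour (edgeR adjusted p = 1.0). It went down in A375/211 and up in A375, from 39 counts and 29 counts at 0 h. CDT1, which rested on 0 to 6 counts per library in A375/211 and 6 to 15 in A375, gave -0.58 ± 0.24, and GINS2 gave -0.32 ± 0.14. POLE and RPA1 were measured more tightly, at -0.13 ± 0.06 and -0.16 ± 0.08, both with smaller rises in A375/211. Of the other genes with a seed match, GINS3 gave 0.23 ± 0.16, POLA1 -0.02 ± 0.05 and RRM2 0.10 ± 0.20.

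With times matched, the labelled level passed between the lines for 10 of the 44 genes, against 25.9% of all genes. In A375/211, 2 were higher (4.55%) and 8 lower (18.2%), beside 13.6% and 12.3% of all genes. The median of the 44 was -0.28 on the log2 scale, beside -0.05 over all genes. The spread in this test is that between the 4 times, since each value is 1 library. Differences that did not pass ran from -1.28 for CDT1 to 0.27 for GINS3.

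The clamp and its loader made up 4 of the 8. PCNA had 34.3, 34.1, 41.2 and 25.2 labelled CPM at 0, 1, 3 and 6 h in A375/211 and 72.7, 106, 152 and 105 CPM in A375. It was lower in A375/211 at all 4 times, by -1.67 ± 0.17 on the log2 scale (SE, edgeR adjusted p = 0.0015). In total RNA its lines overlapped (-0.07 ± 0.54). RFC4 had 6.80, 5.16, 6.55 and 2.45 CPM in A375/211 and 9.13, 12.7, 16.8 and 4.82 CPM in A375 (-1.04 ± 0.22, edgeR adjusted p = 0.0189). RFC2 had 1.36, 3.37, 6.55 and 4.66 CPM in A375/211 and 4.12, 6.55, 8.42 and 11.7 CPM in A375 (-0.95 ± 0.26, edgeR adjusted p = 0.0388). RFC3 had 41.9, 63.5, 71.9 and 25.5 CPM in A375/211 and 101, 108, 94.4 and 49.4 CPM in A375 (-0.84 ± 0.16, edgeR adjusted p = 0.0116). RFC1 and RFC5 of the same complex gave -0.15 ± 0.10 and 0.04 ± 0.14 and did not pass.

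FEN1, whose enzyme works with the clamp, had 34.8, 40.1, 39.5 and 29.4 CPM in A375/211 and 52.7, 75.3, 83.7 and 41.8 CPM in A375 (-0.78 ± 0.14, edgeR adjusted p = 0.00908). GINS1 was lower by -0.73 ± 0.11, POLA1 by -0.53 ± 0.07 and POLA2, the second subunit of that polymerase, by -0.51 ± 0.15. All of these stood lower in A375/211 at each of the 4 times.

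The 2 genes that were higher in A375/211 were PRIM1 and MCM6. PRIM1, the catalytic primase subunit, had 29.9, 34.5, 41.0 and 23.0 CPM in A375/211 and 13.0, 19.4, 24.4 and 13.5 CPM in A375 (0.88 ± 0.13, edgeR adjusted p = 0.00608). It overlaps NACA on the same strand in GENCODE 44, and how reads of both loci were assigned is not given in the sources used here. MCM6 had 26.6, 31.9, 44.6 and 57.8 CPM in A375/211 and 17.4, 21.1, 32.8 and 35.0 CPM in A375 (0.59 ± 0.11, edgeR adjusted p = 0.0128). With glycolytic mRNAs held constant neither passes, at 0.40 and 0.11, while the 8 lower genes all pass. That scale moved the median difference of all genes by -0.48, so it favours lower calls by itself. With total counts all 10 calls between the lines still passed. With DESeq2, 2 of them did not pass, with RLE scaling 1 did not, and without the count filter 2 did not. The calls of PCNA, RFC3, GINS1, POLA1 and PRIM1 held without any single library. Those of POLA2 (-0.57 to -0.32 over the 8), of RFC2 without any but 3 h of A375/211 (-1.24 to -0.81), of RFC4 without 1 h or 3 h of either line (-0.83 without 3 h of A375), of MCM6 without 1 h of either line (0.59) and of FEN1 without 3 h of A375 (-0.61) did not.

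**Figure D5:**
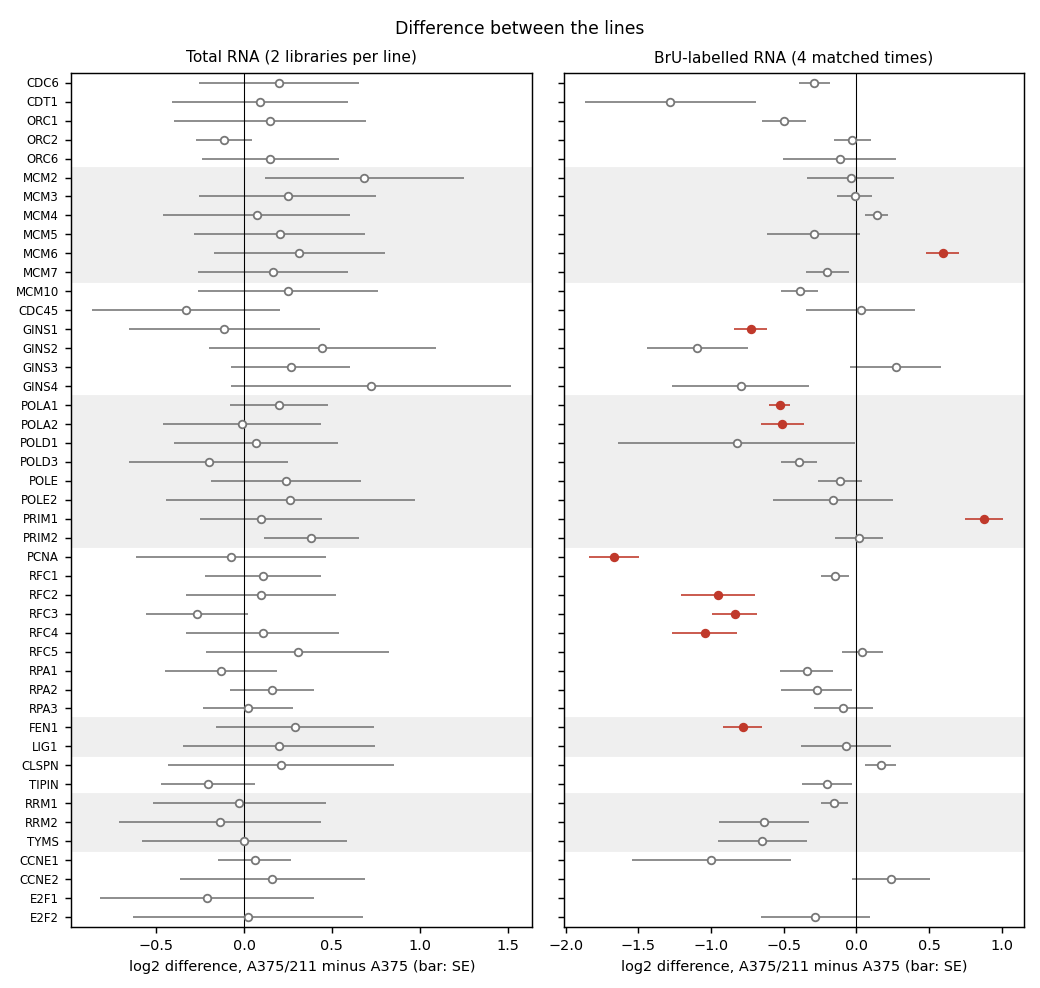
Log2 difference between the lines (A375/211 minus A375) with its standard error for each gene, in total RNA on the left (2 libraries per line) and in labelled RNA with times matched on the right, on separate scales; filled red points pass at an edgeR adjusted p under 0.05. No point is filled on the left, where bars are long; on the right PCNA, 3 loader genes, FEN1, GINS1, POLA1 and POLA2 lie left of 0 and PRIM1 and MCM6 right of it, and those last 2 do not pass with glycolytic mRNAs held constant.

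Markers of other cells were read beside this difference. The leukocyte list summed to 18.6 to 153 labelled CPM in A375/211 and 3.24 to 21.3 CPM in A375, all of it from CD68 and LYZ, with PTPRC and CD3E at 0 in every library. The fibroblast list summed to 30.5 to 152 CPM in A375/211 and 4.02 to 15.9 CPM in A375. LUM led it in A375/211, at 23.4 to 132 CPM against 0 to 5.02 CPM in A375, with COL1A2 at 0 in A375/211 and DCN at 0 in A375. The endothelial list summed to 27.5 to 46.7 CPM in A375/211 and 1.06 to 4.12 CPM in A375. KDR made up 26.4 to 46.7 CPM of this in A375/211 and 0.603 to 2.94 CPM in A375, PECAM1 was the rest, and CDH5 and VWF were at 0. Keratinocyte markers summed to 1.39 to 2.7 CPM in A375/211 and 1.21 to 4.12 CPM in A375. The melanocyte list, which checks the labelled cell type, summed to 86.9 to 217 CPM in A375/211 and 112 to 266 CPM in A375, with SOX10 in every library and TYR at 0 in all of BRIC-seq. Total RNA did not repeat all of this. There the leukocyte list summed to 17.0 and 9.84 CPM in A375/211 and to 25.5 and 21.6 CPM in A375. The fibroblast list summed to 29.8 and 30.8 CPM and to 28.4 and 64.5 CPM. COL1A2 made up 17.2 and 51.0 CPM of the sums in A375, against 0.236 and 0.518 CPM in A375/211. LUM kept its direction (12.3 and 11.9 CPM in A375/211 against 4.28 and 5.53 CPM in A375). PDGFRB (12.9 and 11.8 CPM against 4.42 and 4.66 CPM) and DCN (1.27 and 1.29 CPM against 0.147 and 0 CPM) were also higher in A375/211. PDGFRA and COL1A1 were not separated. The endothelial list kept its direction, at 6.04 and 9.19 CPM against 4.18 and 3.58 CPM. The melanocyte list did not move in 1 direction in total RNA. MITF stood at 38.8 and 49.0 CPM in A375/211 and at 253 and 244 CPM in A375. PMEL was also lower in A375/211 (mean 3.71 CPM against 10.6 CPM). SOX10 (mean 219 CPM against 149 CPM) and S100B (mean 97.3 CPM against 30.8 CPM) were higher there. The lines did not overlap for these genes, but they did for DCT. TYR and MLANA had at most 7 counts in a library. The part of these markers in the differences of the replication genes was not tested.

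The lists of neighbouring genes were also compared in labelled RNA. The shares of all genes to set beside these counts are 29.9% that rose and 34.4% that fell, and 13.6% higher and 12.3% lower in A375/211. Of 40 further replication genes, 12 rose over the chase and 10 fell, and 5 were higher and 5 lower in A375/211. TIMELESS, of the fork protection complex, rose at 0.37 ± 0.03 per hour and DBF4, the activator of the CDC7 kinase, fell at -0.71 ± 0.07. Of 26 regulators, 6 rose and 13 fell, MYC among those that fell at -0.85 ± 0.09, and 3 were higher and 4 lower in A375/211. CDK2 was higher by 1.53 ± 0.14 (edgeR adjusted p = 0.00104) and CCND1, cyclin D1, by 0.98 ± 0.13 (edgeR adjusted p = 0.00342). Of the 38 mitosis genes, 11 rose and 3 fell, and 2 were higher and 8 lower, TPX2 by -0.82 ± 0.09 (edgeR adjusted p = 0.00184).

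The labelled level was also set beside total RNA. At 0 h the labelled level over the total RNA level, on a log2 scale averaged over the lines, ran from -5.70 for E2F1 and -4.54 for POLD1 to 0.84 for TYMS and 1.06 for CLSPN, the adaptor of the replication checkpoint. E2F1 rested on 2 counts at 0 h in A375/211 and 0 in A375, so its ratio is largely set by the pseudocount of 0.5. POLD1 rested on 13 and 6 counts. E2F1 and POLD1 mRNAs hold 20.4% and 17.2% U, and those of CLSPN and TYMS 25.9% and 25.4%. The ratio also holds synthesis and turnover during labelling and separate library preparations, and their parts cannot be told apart. Across the 45 genes this ratio ran with the share of U in the transcript (Pearson r = 0.68, Spearman rho = 0.62) and against the share of G and C (r = -0.73, rho = -0.67), as it did with U across 13380 coding genes (0.51 and 0.51). Of the 6 genes with the lowest ratios, E2F1, POLD1, MCM5, MCM2 and CDT1 had transcripts with 56.3% to 64.8% G and C, and RFC2 had 52.6%. Levels of different genes in labelled RNA are therefore not compared here.

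Counting adds a limit for some genes. In GENCODE 44, 22 of the 45 overlap no other gene, 19 overlap one on the opposite strand and 7 one on the same strand, and how the authors' counting used strand is not given in the sources used here. Values of MCM7 (overlapping AP4M1), TYMS (ENOSF1), RFC4 (EIF4A2), RPA1 (SMYD4), RPA3 (UMAD1), FEN1 (FADS2) and PRIM1 (NACA) are uncertain to that extent. Pseudogenes of RRM2 held 262 counts in the 4 RNA-seq libraries together, against 9303 for RRM2 itself.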

How the data were processed

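Gene counts of total RNA (RNA-seq, 4 libraries) and of BrU-labelled RNA (BRIC-seq, 8 libraries) were used as the authors deposited them: whole-number counts per gene, not normalized. Reads were aligned with HISAT2 2.1.0, and StringTie is named too, per the submitters' processing notes. These notes give hg19 and the series' design text hg38, and coordinates in the tables were left unused. Symbols, lengths and 3′ UTRs come from GENCODE 44 (hg38), and promoters and miR-211-5p from RefSeq (GRCh38.p14). All value columns were used, and 1 BRIC-seq row that names no gene (at most 0.00122% of a library) was left out.

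The main test was edgeR's quasi-likelihood test (edgeR 4.0.16, R 4.3.3) on the counts, with TMM scaling, filterByExpr by line (minimum count 10, minimum total 15) and Benjamini-Hochberg adjustment over all genes tested. RNA-seq was fitted with the line alone (2 residual degrees of freedom). BRIC-seq was fitted with line and hours (5), a slope per line (4), or times matched (3). Standard errors are the log2 value over the square root of F. Log2 CPM differences between libraries used a pseudocount of 0.5. TPM values divide counts by merged exon length. Fits were tested on simulated data with known changes. Alternatives were DESeq2 1.42.0, RLE scaling, total counts, glycolytic mRNAs held constant, no count filter, a replicate block and each library left out.

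The 45 genes, the other lists and the role groups were chosen with earlier results of these data known. Values in every library are given for 8 genes always, for the 5 most positive and 5 most negative passing genes of a comparison (the 5 smallest p where fewer pass), and of each other list up to 4 genes of smallest p; further genes were named to account for the set. Nothing in the labels gives separate cultures behind the libraries of 1 line. The p-values then describe only how these libraries spread, and that spread may be technical.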

Additional observations from a re-analysis of the deposited data

How the results depend on the processing

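Counts below are of the 44 genes tested in labelled RNA, or the 45 in total RNA. With total counts, 1 gene rose and 21 fell on average (median -0.195 per hour), 0 rose and 15 fell in A375/211 (median -0.26), and 10 fell in A375 (median -0.134). With glycolytic mRNAs held constant, 0 rose and 41 fell on average (median -0.516), 0 and 39 in A375/211 (median -0.557), and 0 and 34 in A375 (median -0.473). The same scale gave 0 higher and 28 lower genes between the lines (median -0.756). The median difference of all genes was then -0.526, and 12 of the 44 lay above it. These scales moved the median slope of all genes by -0.16 and -0.48, and 22 of the 44 genes lay above that median under each.

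Slopes that turned negative with glycolytic mRNAs held constant were, on average, MCM2 -0.303, MCM4 -0.385, MCM6 -0.304, MCM7 -0.208, CDC45 -0.116, POLA1 -0.305, POLE -0.216, RFC2 -0.269, RPA1 -0.199, RPA3 -0.213, RRM1 -0.173, TYMS -0.203 and LIG1 -0.112. In A375/211 they were MCM6 -0.292, MCM7 -0.258, POLA1 -0.312, POLE -0.275, RPA1 -0.274, RPA3 -0.195 and RRM1 -0.161. In A375 they were MCM6 -0.317, MCM7 -0.157, CDC45 -0.022, POLA1 -0.297, POLE -0.157, RPA1 -0.123, RRM1 -0.184 and TYMS -0.125. With total counts MCM4 gave -0.067 on average and POLA1 -0.015 in A375/211, and RPA3 in A375/211 ran from -0.032 without its 6 h library to 0.434 without its 0 h library.

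Without the count filter, 4 genes fell on average, 1 rose and 0 fell in A375/211, and 1 fell in A375. DESeq2 gave 2 falls in A375/211. The cause was not tested. With single libraries left out, 9 to 13 genes rose and 4 to 9 fell on average (median -0.069 to 0.017), 0 to 7 and 0 to 3 in A375/211 (median -0.119 to 0.078), and 0 to 11 and 0 to 4 in A375 (median -0.008 to 0.133). The slope difference stayed at 0 genes (median -0.182 to 0.02). Between the lines, 1 to 2 genes were higher and 4 to 6 lower in labelled RNA (median -0.343 to -0.152), and 0 in total RNA (median -0.286 to 0.773).

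The letters a and b gave 2 pairs, too few to show pairing, although deviations of like-lettered libraries correlated (r = 0.339). With the letter as a replicate block, 0 of the 45 genes passed in total RNA (median 0.145, smallest edgeR adjusted p = 0.169), 2 had an unadjusted p under 0.05 (smallest 0.0124), and the median standard error was 0.15 in place of 0.49. Genes with under 20 counts in a library, such as CCNE1, CDT1 and GINS3 at 6 h, are limited by depth.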
